A study of Mus musculus with 12 samples.

Results

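The 49 genes described here encode the secreted Wnt ligands of the mouse, their Frizzled receptors and co-receptors and their secreted antagonists. They also encode membrane and cytoplasmic components of planar cell polarity signalling, and Axin2, a target and feedback inhibitor of Wnt signalling. They are the protein-coding genes, of 55401 genes measured, whose symbol is Wnt, Fzd, Sfrp or Dkk followed by a number, together with Ror1, Ror2, Vangl1, Vangl2, Celsr1, Celsr2, Celsr3, Prickle1, Prickle2, Lrp5, Lrp6 and Axin2. Expression was measured by RNA sequencing in dermis, the connective tissue layer of skin, of C57BL/6 mice aged 6 weeks. Wild-type (WT) mice and mice lacking Cthrc1 (Cthrc1-/-) were sampled on day 0 and on day 7 of an experiment with paired wounds of equal size, giving 4 groups with 3 biological replicates each. The labels give no other allele or treatment, and they do not name the cells in which Cthrc1 is lost or how the allele was made. The comparisons below share samples and are not independent of each other.

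Wnt proteins are lipid-modified signals that act over short distances. In the canonical arm a Wnt bound to a Frizzled receptor and to the co-receptor Lrp5 or Lrp6 stabilises beta-catenin, which acts with Tcf and Lef factors on targets such as Axin2. In the polarity arm Wnt5a or Wnt11 acts through Frizzled, Ror and the Vangl, Celsr and Prickle proteins on the cytoskeleton and orients cells within a sheet. Sfrp proteins bind Wnts outside the cell, and Dkk1 and Dkk2 bind Lrp5 and Lrp6. In skin both arms act in hair follicle growth and orientation, and Cthrc1 is a secreted glycoprotein described as binding Wnt, Frizzled and Ror2 and favouring the polarity arm. The comparisons here therefore ask how the 2 arms stood in the presence and absence of Cthrc1, before and after wounding.

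The tissue and the libraries were examined first. Total counts lay between 48329668 and 76938132 per sample, and Cthrc1 had at least 1813 counts in each WT library and at most 15 in each library labelled Cthrc1-/-. The labelled dermis carried fibroblast transcripts, with a summed level of 7 markers between 381 and 6668 FPKM (fragments per kilobase, scaled to the depth of the library, which allows levels of genes to be compared). It also carried epidermal transcripts, with 5 basal keratinocyte markers summing to between 2169 and 8735 FPKM. Hair follicle markers, mainly keratins of the growing hair, set libraries apart within groups. The 19 markers in the table summed to 18.4, 20.8 and 21.8 FPKM in WT day 0, with Krt33b at 0 in that group, and to 287, 6082 and 14770 FPKM in Cthrc1-/- day 0. On day 7 they summed to 1809, 4598 and 4178 FPKM in WT samples and to 4115, 571 and 6202 FPKM in Cthrc1-/- samples. WT day 7 replicate 1 stood apart in a second way, with 5 neutrophil markers at 4927 FPKM against at most 1153 FPKM in any other library. Suprabasal keratinocyte, macrophage, endothelial and skeletal muscle lists had 0 markers called in the 5 tests. In bulk tissue of this kind, fewer cells of a type and less RNA per cell cannot be told apart.

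Stretches of 250 bases just before the transcription start are given for 5 genes on which the results turn: 2 ligands called in a comparison (Wnt11 and Wnt10b), the antagonists with the largest rise and fall (Sfrp2 and Dkk2) and Axin2, the standard readout of the canonical arm. They are from RefSeq on GRCm38.p6, on the strand of the gene, and capitals mark the Tcf and Lef binding letters CTTTGAT, or ATCAAAG on the opposite strand. Of the 5 stretches only that of Wnt11 held a match. A second Wnt11 start, with the stretch chr7:98838595-98838844, held none and is not printed. RefSeq promoters were matched by symbol for 33 of the 49 genes.
Wnt11 (chr7:98834862-98835111, plus strand): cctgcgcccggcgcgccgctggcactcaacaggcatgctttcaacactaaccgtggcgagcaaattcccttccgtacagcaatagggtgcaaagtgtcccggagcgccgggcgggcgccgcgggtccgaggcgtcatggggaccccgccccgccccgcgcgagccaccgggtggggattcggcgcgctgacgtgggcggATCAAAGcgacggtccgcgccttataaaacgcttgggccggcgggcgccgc
Wnt10b (chr15:98778151-98778400, minus strand): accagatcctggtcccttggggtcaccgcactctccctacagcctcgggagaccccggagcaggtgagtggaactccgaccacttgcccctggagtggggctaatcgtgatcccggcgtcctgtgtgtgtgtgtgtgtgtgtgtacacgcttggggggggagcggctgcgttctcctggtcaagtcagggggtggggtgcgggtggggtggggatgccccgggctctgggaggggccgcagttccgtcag
Sfrp2 (chr3:83766071-83766320, plus strand): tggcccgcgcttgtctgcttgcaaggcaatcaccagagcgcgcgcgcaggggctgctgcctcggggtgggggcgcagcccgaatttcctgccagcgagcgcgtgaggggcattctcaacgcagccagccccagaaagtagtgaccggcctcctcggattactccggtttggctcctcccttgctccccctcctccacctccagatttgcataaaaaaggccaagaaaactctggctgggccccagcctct
Dkk2 (chr3:132085042-132085291, plus strand): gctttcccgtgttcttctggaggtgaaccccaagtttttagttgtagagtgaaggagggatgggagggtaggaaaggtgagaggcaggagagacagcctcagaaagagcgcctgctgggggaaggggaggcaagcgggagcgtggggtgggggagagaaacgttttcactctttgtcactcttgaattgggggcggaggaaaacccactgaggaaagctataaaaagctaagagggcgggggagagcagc
Axin2 (chr11:108920099-108920348, plus strand): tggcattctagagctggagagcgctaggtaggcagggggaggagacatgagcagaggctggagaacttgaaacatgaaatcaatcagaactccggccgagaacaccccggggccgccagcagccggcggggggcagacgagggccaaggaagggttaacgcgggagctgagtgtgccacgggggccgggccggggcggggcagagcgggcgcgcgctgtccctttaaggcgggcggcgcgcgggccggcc
The Wnt11 match began 51 bases before the start. Over all 32851 promoters in the table, 3.205% held CTTTGAT or ATCAAAG in the same window. Among the 33 members with a promoter, Wnt11, Wnt5b and Prickle2 held 1 at some start, 3 genes in all. Each of these 3 genes has more than 1 start. The share is per promoter and the member count per gene, so no excess among the members is read from them. The match is a description of these letters and not a binding site.

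The levels of the members spanned from undetected to above 100 FPKM. Sfrp2 had the highest mean of the antagonists, at 32.5 FPKM over the 12 samples, Fzd1 of the Frizzled receptors at 25.9 FPKM and Wnt4 of the ligands at 20.6 FPKM. Wnt10a, a ligand of hair follicles and epidermis, led the canonical ligands at 13.3 FPKM, and Wnt11 led the polarity ligands at 6.36 FPKM. Celsr2, an atypical cadherin of the polarity core, had 15.8 FPKM, and Lrp5 at 8.73 FPKM lay above Lrp6 at 6.18 FPKM. The leading member of each role was not called in any comparison, apart from Sfrp2 and Wnt11. In the order WT and Cthrc1-/- on day 0, then WT and Cthrc1-/- on day 7, Wnt4 was at 17.3, 17.6 and 18.6, at 22.3, 19.8 and 27.4, at 7.39, 21.3 and 31.7 and at 17.3, 19.4 and 27.5 FPKM. Its WT samples spread widely on day 7 and closely on day 0. In the same order Wnt10a was at 14.8, 13.8 and 15.6, at 14.8, 11.6 and 14.4, at 4.98, 10.8 and 17.5 and at 10.6, 14.3 and 16.6 FPKM. Fzd1 was at 29.4, 29.1 and 28.4, at 24.4, 30.6 and 31.8, at 18.3, 28.6 and 24.7 and at 24.8, 19.3 and 21 FPKM. For Wnt4, Wnt10a and Fzd1 alike, the lowest of the 12 values belonged to WT day 7 replicate 1. Celsr2 in that order was at 11.4, 11.3 and 9.51, at 13.5, 21.7 and 28.9, at 6.59, 16.9 and 19.7 and at 17.4, 14.1 and 18.1 FPKM. Lrp5 was at 9.94, 9.62 and 8.60, at 6.97, 8.86 and 7.67, at 6.58, 8.39 and 9.95 and at 8.65, 11 and 8.52 FPKM. WT day 7 replicate 1 was again the lowest of the 12 for both genes. A mean of at least 1 FPKM was required for testing, which 38 of the 49 genes passed. Wnt2 was the lowest that passed, at 1.41 FPKM, and it did so through WT day 7 replicate 1 at 9.28 FPKM. Wnt16 was the highest that did not, at 0.908 FPKM. The other genes not tested were Wnt1, Wnt2b, Wnt7a, Wnt8a, Wnt8b, Wnt9b, Fzd9, Celsr3, Dkk1 and Dkk4. Wnt8b had 0 counts in the 12 samples. If each count were 1 fragment, this would allow up to 3 counts or between 0.0390 and 0.0621 CPM (counts scaled to library depth). A deposited count is not 1 fragment, so the limit can be wider. Dkk1, the classical Lrp5 and Lrp6 antagonist, had 0 counts in the 6 day 0 samples and was detected in 5 of the 6 day 7 samples, at no more than 0.431 FPKM.

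**Figure D1:**
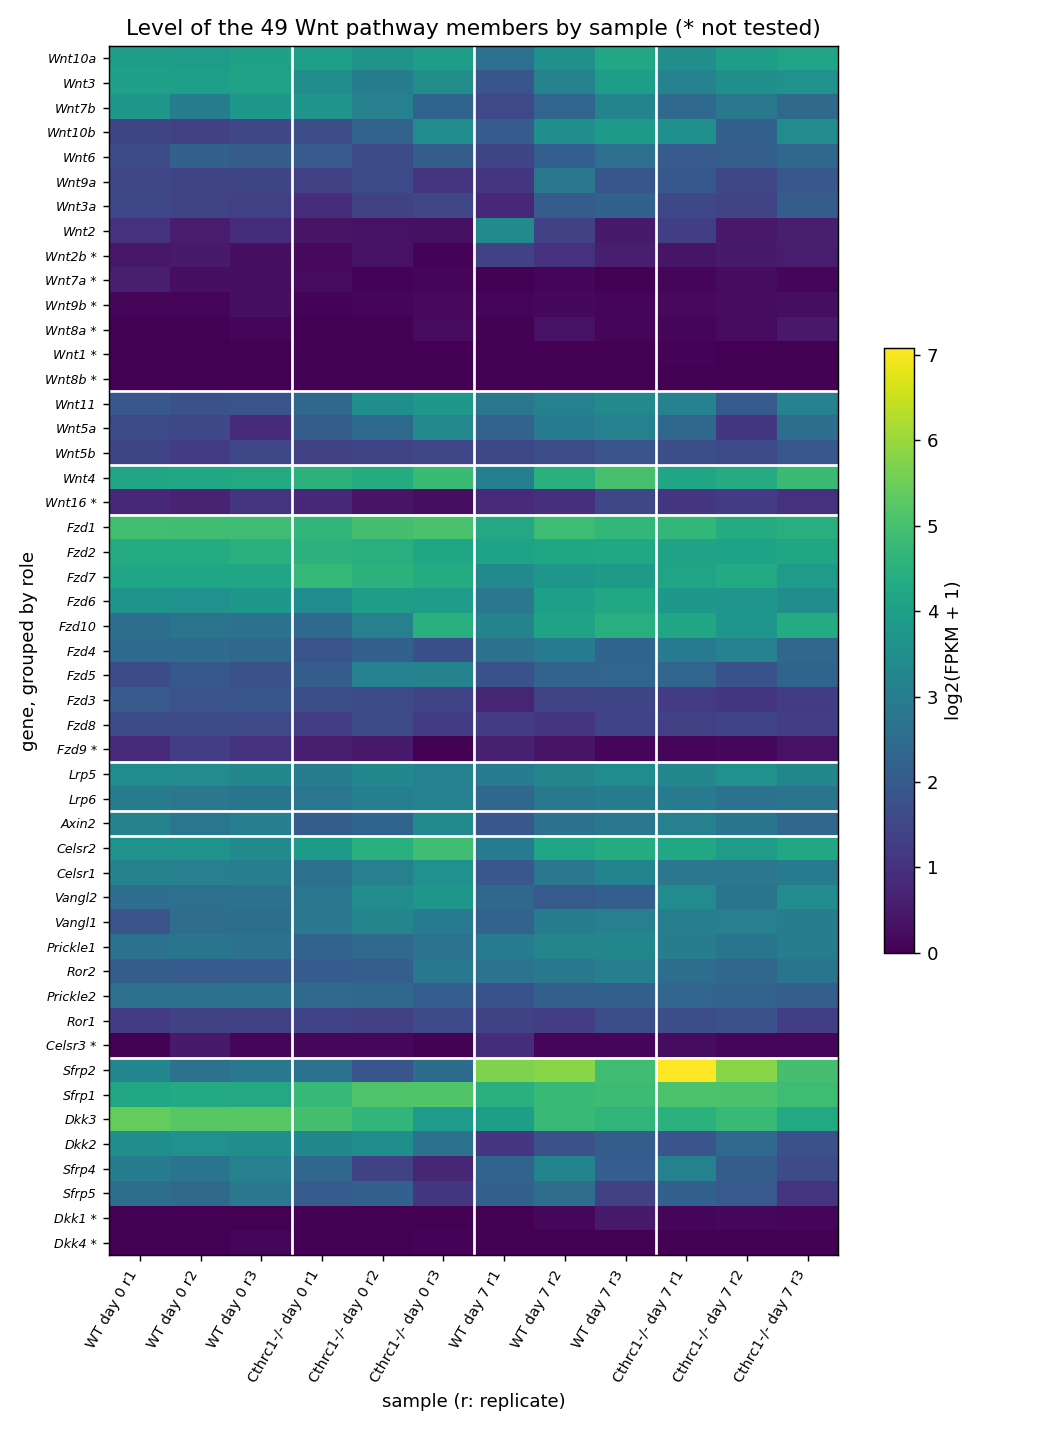
Level of the 49 genes as log2(FPKM + 1) in each of the 12 samples, grouped by role, with genes not tested marked by an asterisk. Sfrp2 is bright in the 6 day 7 samples, and Wnt2 is bright in WT day 7 replicate 1 alone.

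The first comparison asked how the members stood in Cthrc1-/- and WT dermis on day 0. Wnt11, Fzd5 and Sfrp1 were higher in Cthrc1-/-, and no member was called lower. These were 3 of the 38 genes tested (7.89%), against 5.78% of all genes called in either direction, 3.51% called higher and 2.26% called lower. Calls required an adjusted p below 0.05 in the quasi-likelihood test of edgeR, taken over 14313 genes. Hair follicle markers moved with this comparison, 17 of 19 being called higher, as did 3 of 5 proliferation, 2 of 5 melanocyte, 2 of 4 wound keratinocyte and 1 of 5 tested dermal papilla markers. Of the fibroblast markers 1 of 7 was called lower and the other fitted values were also below 0, with a sum of 5066 to 6668 FPKM in WT and 381 to 2555 FPKM in Cthrc1-/-. Adipocyte markers summed to 425 to 582 and 92.9 to 287 FPKM, macrophage markers to 242 to 259 and 69.6 to 181 FPKM and endothelial markers to 47.6 to 48.3 and 13.2 to 38.1 FPKM, none of these lists having a call. Their sums did not overlap between genotypes. The part of these cells in the changes below was not tested. With the mean log2 level of the hair follicle markers (the hair follicle score) as covariate 0 members were called, and 9 genes in all, against 827 without it. The hair follicle sums did not overlap between the genotypes on day 0, so the covariate takes up part of the group difference by construction. This fit therefore cannot show what part hair follicles had in the calls.

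Wnt11, a polarity ligand (ENSMUSG00000015957, chromosome 7, 98835112 to 98855195, GRCm38), was at 2.79, 2.35 and 2.53 FPKM in WT day 0. It was at 4.11, 10.6 and 12.7 FPKM in the 3 Cthrc1-/- day 0 samples. The groups did not overlap, and the Cthrc1-/- samples were uneven, with replicate 1 nearest to WT. The fitted log2 change was 1.70 (standard error 0.409, edgeR adjusted p 0.0442). The call held in 3 of 12 fits that left out 1 sample, those without Cthrc1-/- day 0 replicate 1, WT day 7 replicate 1 or Cthrc1-/- day 7 replicate 2. It was lost in the other 9 (edgeR adjusted p up to 0.143), in both limma fits on log2 FPKM and when only day 0 samples were fitted. With the hair follicle score as covariate, which takes up part of the group difference by construction, the log2 change was -0.074.

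Sfrp1, a secreted Wnt antagonist (ENSMUSG00000031548, chromosome 8, 23411502 to 23449632), was at 18.1, 19.1 and 18.3 FPKM in WT day 0. In Cthrc1-/- day 0 it was at 25.5, 33.8 and 34.5 FPKM. The 3 WT samples lay close together and all Cthrc1-/- samples lay above them. The fitted log2 change was 0.64 (standard error 0.117, edgeR adjusted p 0.0235). The call held in both limma fits and in 8 of 12 fits with 1 sample left out. It was lost without any 1 of the WT day 0 replicates or without Cthrc1-/- day 0 replicate 2 (edgeR adjusted p up to 0.101), when only day 0 samples were fitted, and with the hair follicle score as covariate.

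Fzd5, a Frizzled receptor (ENSMUSG00000045005, chromosome 1, 64730558 to 64737751), was at 2.13, 2.86 and 2.40 FPKM in WT day 0 and at 3.22, 7.69 and 7.96 FPKM in Cthrc1-/- day 0. Again replicate 1 of Cthrc1-/- lay just above the WT range and the other 2 well above it. It differed by 1.23 on the log2 scale (standard error 0.314), and its edgeR adjusted p of 0.0496 lay at the threshold. It held in 2 of 12 fits with 1 sample left out, those without Cthrc1-/- day 0 replicate 1 or WT day 7 replicate 1, and in none of the limma fits. With the hair follicle score as covariate, with the same limit, the log2 change was -0.098.

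With the called genes included, 19 of 38 members had FPKM ranges that did not overlap between genotypes on day 0, 10 higher and 9 lower in Cthrc1-/-, against 41.4% of all genes tested (21.5% higher and 19.8% lower). Of the polarity arm, 4 genes that did not pass the test had higher ranges in Cthrc1-/- and 2, Prickle2 and Fzd3, had lower ranges. Wnt5a, the main polarity ligand, was at 2.02, 1.89 and 0.789 FPKM in WT and 3.23, 4.32 and 9.03 FPKM in Cthrc1-/- (log2 change 1.68, standard error 0.544, edgeR adjusted p 0.0855). Vangl2, a polarity core protein, was at 4.78 to 5.29 FPKM in WT and 5.84 to 12.3 FPKM in Cthrc1-/- (edgeR adjusted p 0.109). For Celsr2 and Vangl1 the edgeR adjusted p was 0.117 and 0.151. Prickle2 was at 5.03 to 5.22 FPKM in WT and 3.33 to 4.35 FPKM in Cthrc1-/- (fitted log2 value -0.47, edgeR adjusted p 0.0973), and Fzd3 at 2.54 to 2.92 and 1.75 to 2.26 FPKM (fitted log2 value -0.54, edgeR adjusted p 0.224). Outside both arms, the antagonist Sfrp4 had the lowest fitted value, -1.73, at 5.68 to 7.50 FPKM in WT and 0.693 to 4.06 FPKM in Cthrc1-/- (edgeR adjusted p 0.127). With DESeq2, 7 members were called: Wnt11, Wnt5a, Vangl2, Celsr2, Sfrp1 and Fzd5 higher and Sfrp4 lower. Over all genes DESeq2 called 2787, against 827 in edgeR, so this rise in calls was not particular to the members.

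**Figure D2:**
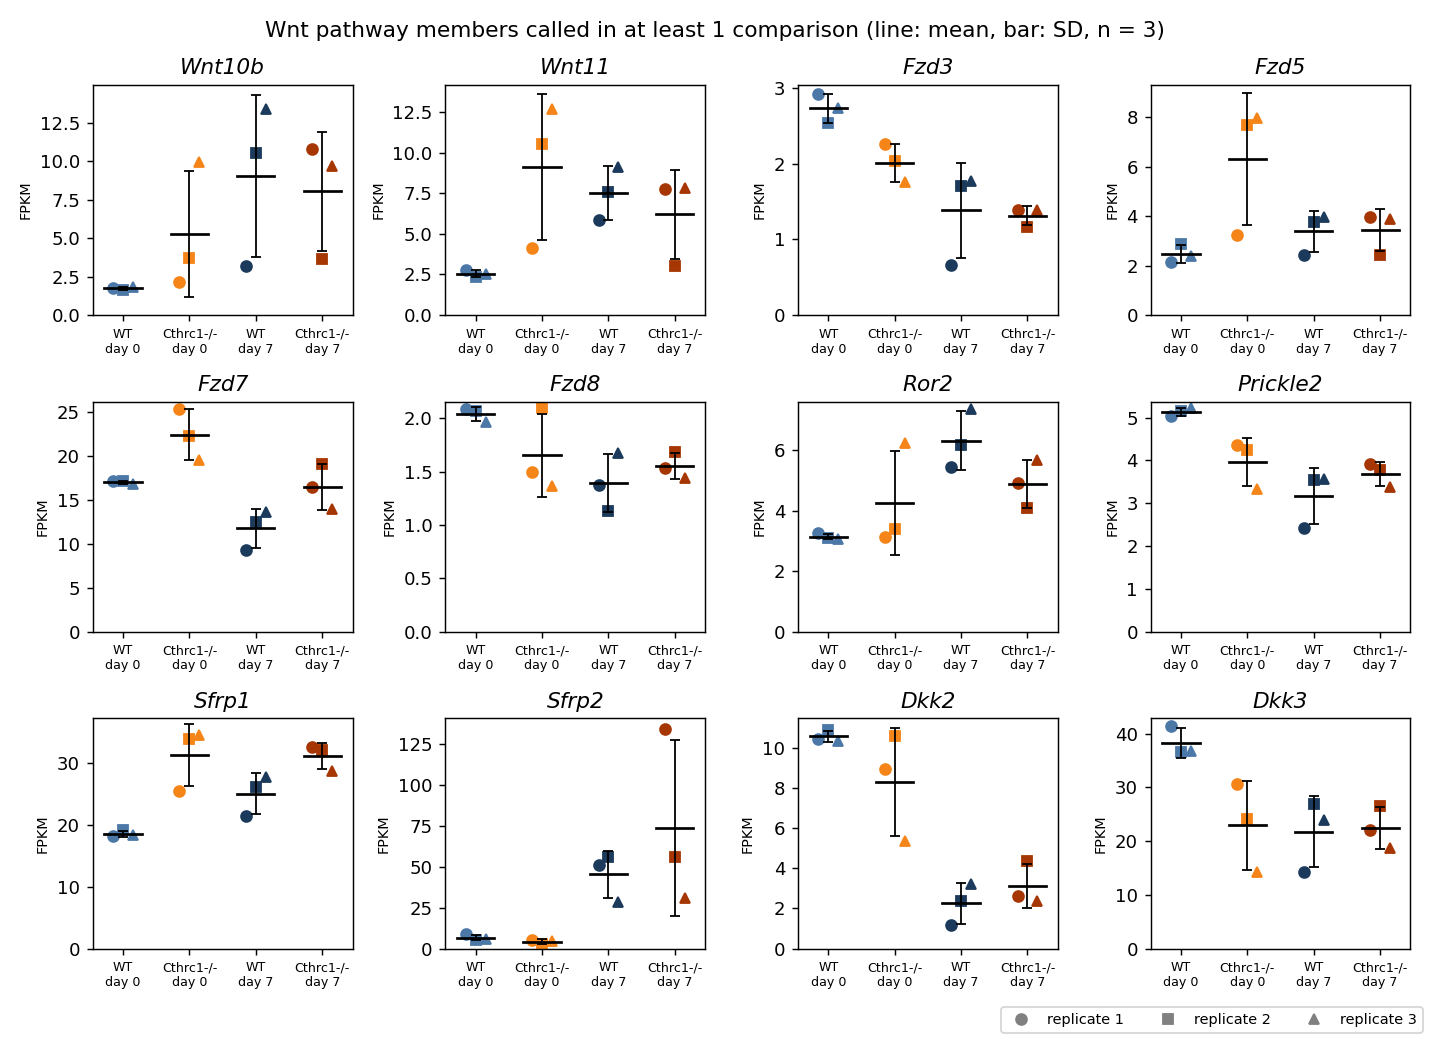
FPKM of the 12 members called in at least 1 comparison, with 1 point per sample, the group mean as a line and the SD (n = 3) as a bar. WT day 0 samples lie close together, while Wnt11 spans 4.11 to 12.7 FPKM over the 3 Cthrc1-/- day 0 samples.

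On day 7 no member was called between genotypes. The count was 0 of 38 with edgeR, against 0.021% of all genes (0.014% higher and 0.00699% lower), and 4 members had an unadjusted p under 0.05, against 5.46% of all genes. Vangl2, the member with the smallest p (ENSMUSG00000026556, chromosome 1, 172000960 to 172028444), was at 4.16, 3.01 and 3.34 FPKM in WT day 7 and at 9.69, 5.64 and 9.68 FPKM in Cthrc1-/- day 7. The 2 groups did not overlap. Its fitted log2 change was 1.16 (standard error 0.280, edgeR adjusted p 0.745, unadjusted p 0.00198), and with DESeq2, where it was the only member called, the adjusted p was 0.0437. Over all genes DESeq2 called 62 in this comparison. Fzd7, a receptor with broad expression in dermis, was at 9.33, 12.4 and 13.6 FPKM in WT and 16.5, 19.1 and 13.9 FPKM in Cthrc1-/- samples (fitted log2 value 0.42, SE 0.164, edgeR adjusted p 0.907). It too did not overlap, by a margin smaller than the spread within either group.

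The genes with non-overlapping ranges on day 7 were these 2 and Sfrp1, 3 of 38 members against 9.13% of all genes, all higher in Cthrc1-/- (6.46% of all genes were higher and 2.67% lower in this way). Sfrp1 was at 21.4, 26.1 and 27.7 FPKM in WT and 32.6, 32.0 and 28.7 FPKM in Cthrc1-/- (log2 change 0.24, standard error 0.116, edgeR adjusted p 0.918). The difference that was called on day 0 was thus not called on day 7, and the test of the change between days is given with the interaction below. Nothing is read from the fitted value of Wnt2, which passed the filter through 1 library of this comparison.

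Between day 0 and day 7 in WT dermis, 9 of 38 members changed (23.7%), against 13.1% of all genes. Sfrp2, Ror2 and Wnt10b rose, and Dkk2, Dkk3, Prickle2, Fzd3, Fzd7 and Fzd8 fell. Of all genes, 6.04% rose and 7.1% fell. The FPKM ranges of 17 of 38 members did not overlap between days, 8 higher and 9 lower on day 7, against 44% of all genes (29.8% higher and 14.1% lower). In the same comparison 14 of 19 hair follicle markers, 4 of 5 melanocyte markers, 5 of 5 proliferation markers, 3 of 5 tested dermal papilla markers, 2 of 4 wound keratinocyte markers and 3 of 5 neutrophil markers were called higher. Called lower were 4 of 4 tested adipocyte markers and 2 of 5 basal keratinocyte markers. Their part in the changes was not tested. With the hair follicle score as covariate 0 members were called, and 60 genes in all, against 1880 without it. The hair follicle sums did not overlap between the days in WT, so this fit has the same limit as on day 0.

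Dkk2, an antagonist that binds Lrp5 and Lrp6 (ENSMUSG00000028031, chromosome 3, 132085292 to 132180304), was at 10.5, 10.9 and 10.4 FPKM on day 0. On day 7 it was at 1.17, 2.39 and 3.22 FPKM. Every day 7 sample lay far below the lowest day 0 sample. The log2 change was -2.45 (standard error 0.384, edgeR adjusted p 0.00631), and the call held in all 12 fits with 1 sample left out (edgeR adjusted p 0.00232 to 0.0286). Dkk3, a divergent member of the same family (ENSMUSG00000030772, chromosome 7, 112116017 to 112159057), was at 41.4, 36.5 and 36.8 FPKM on day 0 and 14.3, 26.9 and 23.9 FPKM on day 7. The fitted log2 value was -1.02 (SE 0.297, edgeR adjusted p 0.0481). It was called in 2 of 12 fits with 1 sample left out, those without Cthrc1-/- day 0 replicate 1 or 3. It was called in no limma fit and not with total-count scaling.

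Sfrp2, a secreted antagonist of dermal fibroblasts (ENSMUSG00000027996, chromosome 3, 83766321 to 83774316), showed the largest rise. It was at 8.67, 5.35 and 6.08 FPKM in WT day 0 and at 51.3, 55.9 and 28.8 FPKM in WT day 7. The lowest day 7 sample was more than 3 times the highest day 0 sample. The log2 change was 2.59 (standard error 0.529, edgeR adjusted p 0.0147), and the call was lost without WT day 0 replicate 2 or 3 (edgeR adjusted p up to 0.0640). Of the fibroblast markers 0 of 7 were called in this comparison, and their sum was 5066 to 6668 FPKM on day 0 and 3686 to 5449 FPKM on day 7.

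Wnt10b, a canonical ligand of the growing hair follicle (ENSMUSG00000022996, chromosome 15, 98770712 to 98778150), was at 1.77, 1.63 and 1.82 FPKM in WT day 0 and at 3.18, 10.6 and 13.4 FPKM in WT day 7. The day 7 samples were uneven, with replicate 1 closest to day 0. The log2 change was 2.14 (standard error 0.610, edgeR adjusted p 0.0459). The call held in 4 of 12 fits with 1 sample left out and was lost without any WT day 0 replicate, WT day 7 replicate 2 or 3, Cthrc1-/- day 0 replicate 2, or Cthrc1-/- day 7 replicate 1 or 3. It was not called in either limma fit.

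Ror2, a receptor tyrosine kinase for Wnt5a (ENSMUSG00000021464, chromosome 13, 53109312 to 53286124), was at 3.25, 3.11 and 3.08 FPKM on day 0 and 5.45, 6.17 and 7.37 FPKM on day 7 in WT. The log2 change was 0.81 (standard error 0.216, edgeR adjusted p 0.0363), and it was called in both limma fits. Leaving out any 1 WT sample, or Cthrc1-/- day 7 replicate 1, ended the call (edgeR adjusted p up to 0.110). Prickle2, a cytoplasmic polarity core protein (ENSMUSG00000030020, chromosome 6, 92370908 to 92706155), was at 5.03, 5.16 and 5.22 FPKM on day 0 and 2.42, 3.54 and 3.56 FPKM on day 7. The log2 change was -0.89 (standard error 0.162, edgeR adjusted p 0.00966), and the call held in all 12 fits with 1 sample left out. Thus within the polarity arm the receptor Ror2 rose, while the core component Prickle2 and the receptor Fzd3, given below, fell in the same samples.

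Of the Frizzled receptors 3 of 9 tested fell in WT. Fzd3, a receptor linked to polarity (ENSMUSG00000007989, chromosome 14, 65192449 to 65262463), was at 2.92, 2.54 and 2.74 FPKM on day 0 and 0.662, 1.71 and 1.77 FPKM on day 7 (fitted log2 value -1.21, standard error 0.279, edgeR adjusted p 0.0226). Fzd7 (ENSMUSG00000041075, chromosome 1, 59482424 to 59486955) was at 17.1, 17.1 and 16.8 FPKM on day 0 and 9.33, 12.4 and 13.6 FPKM on day 7 (fitted log2 value -0.73, standard error 0.165, edgeR adjusted p 0.0207). Fzd8 (ENSMUSG00000036904, chromosome 18, 9212163 to 9218136) was at 2.09, 2.07 and 1.97 FPKM on day 0 and 1.37, 1.13 and 1.68 FPKM on day 7 (fitted log2 value -0.74, standard error 0.214, edgeR adjusted p 0.0475). The day 7 samples of each receptor lay below its day 0 samples. The 3 falls depended on the scaling: with total-count scaling, which moved the median log2 change of all genes from -0.0019 to 0.20, none of the 3 was called, although each stayed lower. Without any 1 WT day 0 replicate Fzd3, Fzd7 and Fzd8 were not called, and Fzd7 was not called without WT day 7 replicate 1 or 2. Fzd8 was called only without Cthrc1-/- day 0 replicate 2 or 3. Fzd10 had the highest fitted value of the family, at 4.92 to 5.58 FPKM on day 0 and 7.95 to 21.2 FPKM on day 7 (edgeR adjusted p 0.0911).

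**Figure D3:**
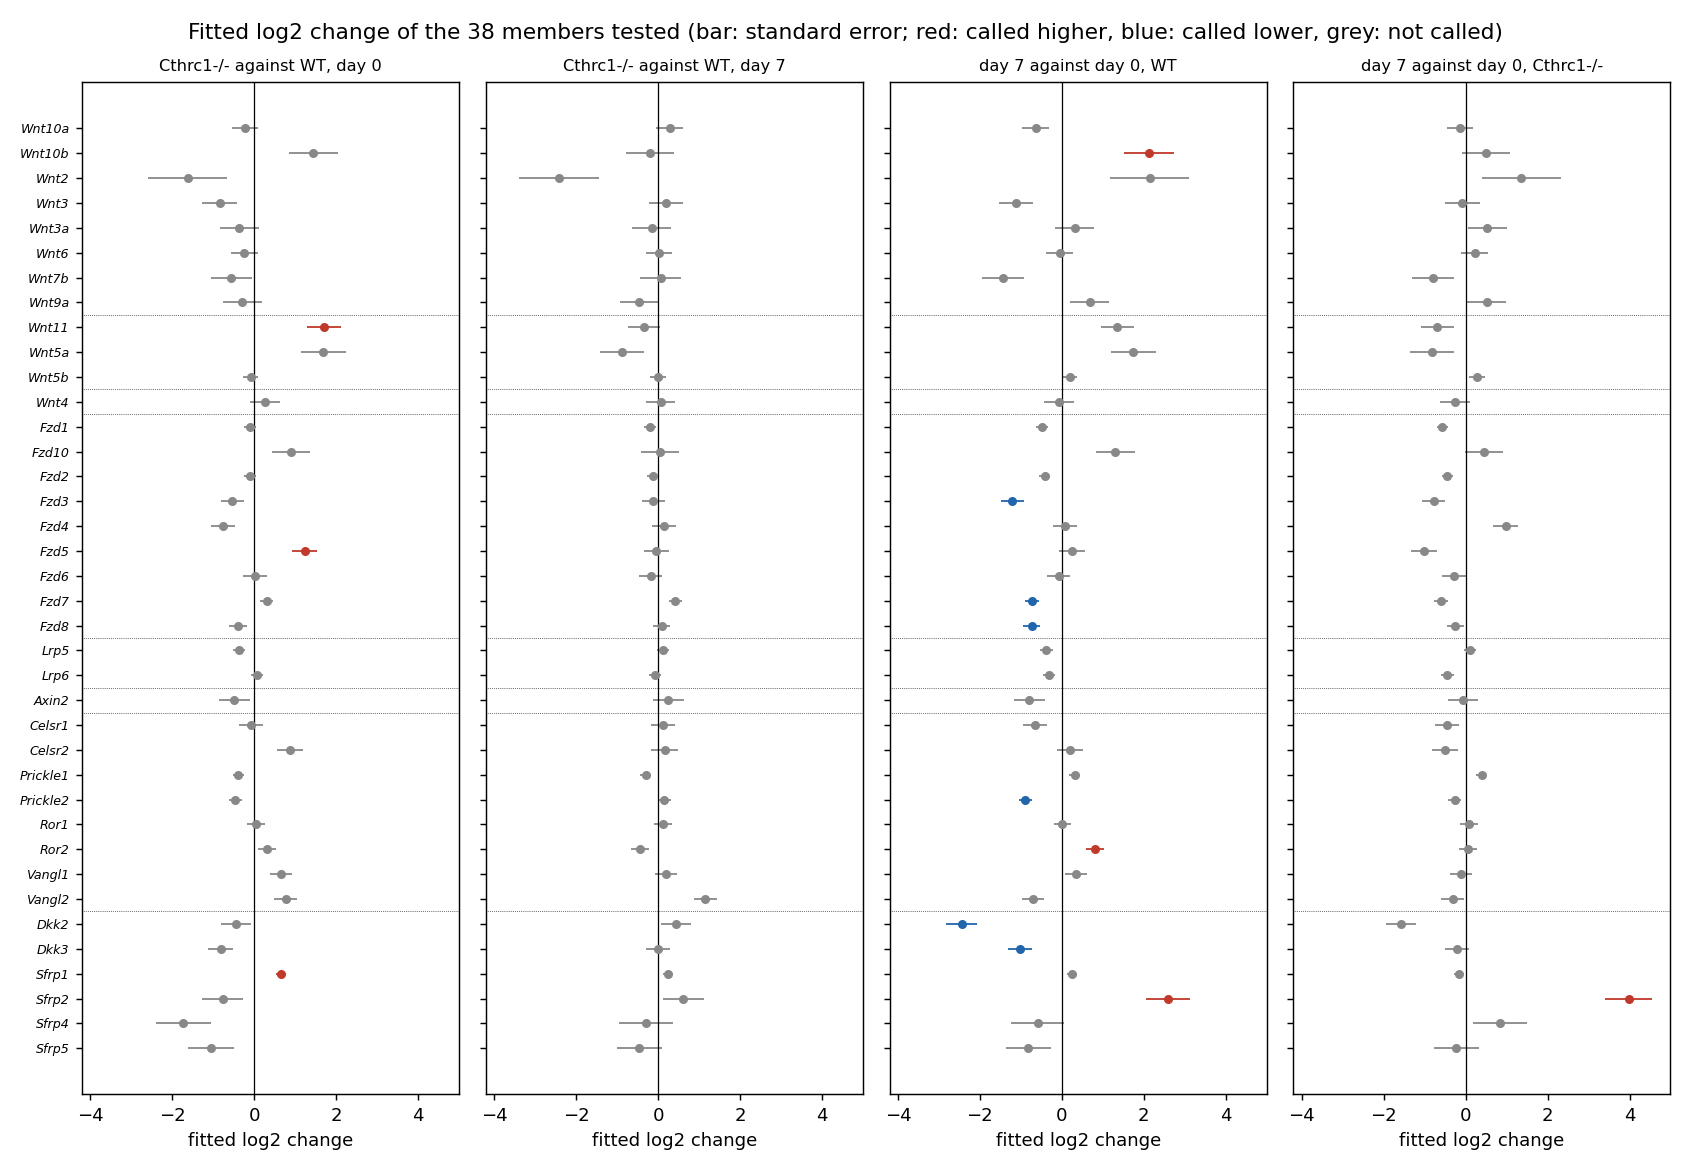
Fitted log2 change with its standard error for the 38 members tested in the 4 comparisons, grouped by role, with called rises in red and called falls in blue. WT between days has 9 coloured genes, Cthrc1-/- against WT on day 0 has 3, Cthrc1-/- between days has 1 and Cthrc1-/- against WT on day 7 has 0.

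In Cthrc1-/- dermis 1 of 38 members changed between days (2.63%), against 1.46% of all genes (0.859% higher and 0.601% lower). The gene was Sfrp2, at 5.26, 2.70 and 4.68 FPKM on day 0 and 134, 55.9 and 30.9 FPKM on day 7. All day 7 samples lay above all day 0 samples and differed among themselves by over 4 times. The log2 change was 3.98 (standard error 0.562, edgeR adjusted p 0.0216). The call was lost without Cthrc1-/- day 0 replicate 2, Cthrc1-/- day 7 replicate 1 or Cthrc1-/- day 7 replicate 2 (edgeR adjusted p up to 0.0755), and when only the Cthrc1-/- samples were fitted (edgeR adjusted p 0.0601). Of the hair follicle markers 0 of 19 were called here, and 0 of 7 fibroblast markers, while 1 of 5 tested dermal papilla markers was called higher. The hair follicle sums overlapped between days, at 287 to 14770 FPKM on day 0 and 571 to 6202 FPKM on day 7. With the hair follicle score as covariate 5 members were called, and 466 genes in all, against 1 and 209 without it. FPKM ranges did not overlap for 8 of 38 members, 5 higher and 3 lower on day 7, against 26.5% of all genes (21.5% higher and 4.99% lower).

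Dkk2 had the next smallest p, at 8.94, 10.6 and 5.35 FPKM on day 0 and 2.62, 4.38 and 2.35 FPKM on day 7 in Cthrc1-/-. The groups did not overlap, and the fitted log2 value was -1.58 (SE 0.373, edgeR adjusted p 0.0667). DESeq2 called it, with an adjusted p of 0.00124. The 2 comparisons between days contrast different samples, but both rest on 1 fit to all 12 samples with a shared estimate of spread. Sfrp2 was called higher in both, and the 2 calls are not independent of each other. Of the 9 Frizzled receptors tested, 7 had fitted values below 0 and 2 above, and 0 were called with edgeR. Fzd7 had a fitted log2 value of -0.60 (SE 0.164, edgeR adjusted p 0.0930), without overlap between days. DESeq2, which called 1409 genes here, called Fzd1, Fzd2, Fzd5 and Fzd7 lower and Fzd4 higher. Fzd4, a receptor of endothelium and other cells, was at 2.54, 3.60 and 2.30 FPKM on day 0 and 6.64, 7.83 and 4.08 FPKM on day 7 (log2 change 0.98, standard error 0.296, edgeR adjusted p 0.118, DESeq2 adjusted p 0.0252). The 5 endothelial markers, of which 0 were called, summed to 13.2 to 38.1 FPKM on day 0 and 73.9 to 131 FPKM on day 7 in the same libraries, and their part in the Fzd4 values was not tested.

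The interaction asked whether the 2 genotypes changed differently from day 0 to day 7. A call was made for 0 of 38 members with edgeR, against 0.014% of all genes (0.00699% in each direction), and 7 members had an unadjusted p under 0.05, against 15.1% of all genes. The smallest p-values were those of the polarity ligands Wnt11 and Wnt5a. The Wnt11 interaction, in log2 units, was -2.05 (SE 0.569, edgeR adjusted p 0.203), from a WT change over time of 1.35 (edgeR adjusted p 0.0529) and a Cthrc1-/- change of -0.69 (edgeR adjusted p 0.392). It was called without Cthrc1-/- day 0 replicate 1 (edgeR adjusted p 0.0487), in a fit that called 242 genes for the interaction, against 2 with all samples. In Wnt5a it was -2.57 (standard error 0.760, edgeR adjusted p 0.212), from 1.74 in WT (edgeR adjusted p 0.0595) and -0.83 in Cthrc1-/- (edgeR adjusted p 0.448). DESeq2 called both, with adjusted p of 0.0180 and 0.0218, among 681 genes that it called for the interaction. Hair follicle markers moved the same way, with a median interaction of -9.88 on the log2 scale and 0 of 19 called. Whether they account for the ligand values was not tested. For Sfrp1 the interaction was -0.40 (standard error 0.164, edgeR adjusted p 0.296).

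The levels of a few members, picked after their values were seen, are set beside the hair follicle sums here. In Cthrc1-/- day 0, Wnt11, Wnt5a, Wnt10b and Fzd5 were lowest in replicate 1, which had the fewest hair follicle transcripts, and highest in replicate 3, which had the most. Sfrp4 (4.06, 1.58 and 0.693 FPKM in replicates 1 to 3) and Dkk3 (30.6, 24.1 and 14.2 FPKM) went the other way. In Cthrc1-/- day 7, replicate 2 had the lowest hair follicle sum and the lowest Wnt5a (1.22 FPKM), Wnt10b (3.63 FPKM), Wnt11 (3.03 FPKM) and Fzd10 (12.1 FPKM). In that group Wnt10b was highest in replicate 1 at 10.8 FPKM, while the sum was highest in replicate 3. In WT day 7 the sum was lowest in replicate 1, as were Wnt11, Wnt5a, Wnt10b, Fzd5 and Fzd10. In that group the sum was highest in replicate 2, while these genes were highest in replicate 3. WT day 7 replicate 1, which also had the most neutrophil transcripts, was lowest for Wnt4, Wnt10a, Fzd1, Celsr2 and Lrp5 as well. Being lowest in that library was thus not particular to the genes picked here. For Sfrp2, in Cthrc1-/- day 0 replicate 3, with the highest sum, it was at 4.68 FPKM, and in Cthrc1-/- day 7 replicate 2, with 571 FPKM of markers, it was at 55.9 FPKM. These are descriptions of 12 libraries, and no correlation was computed.

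**Figure D4:**
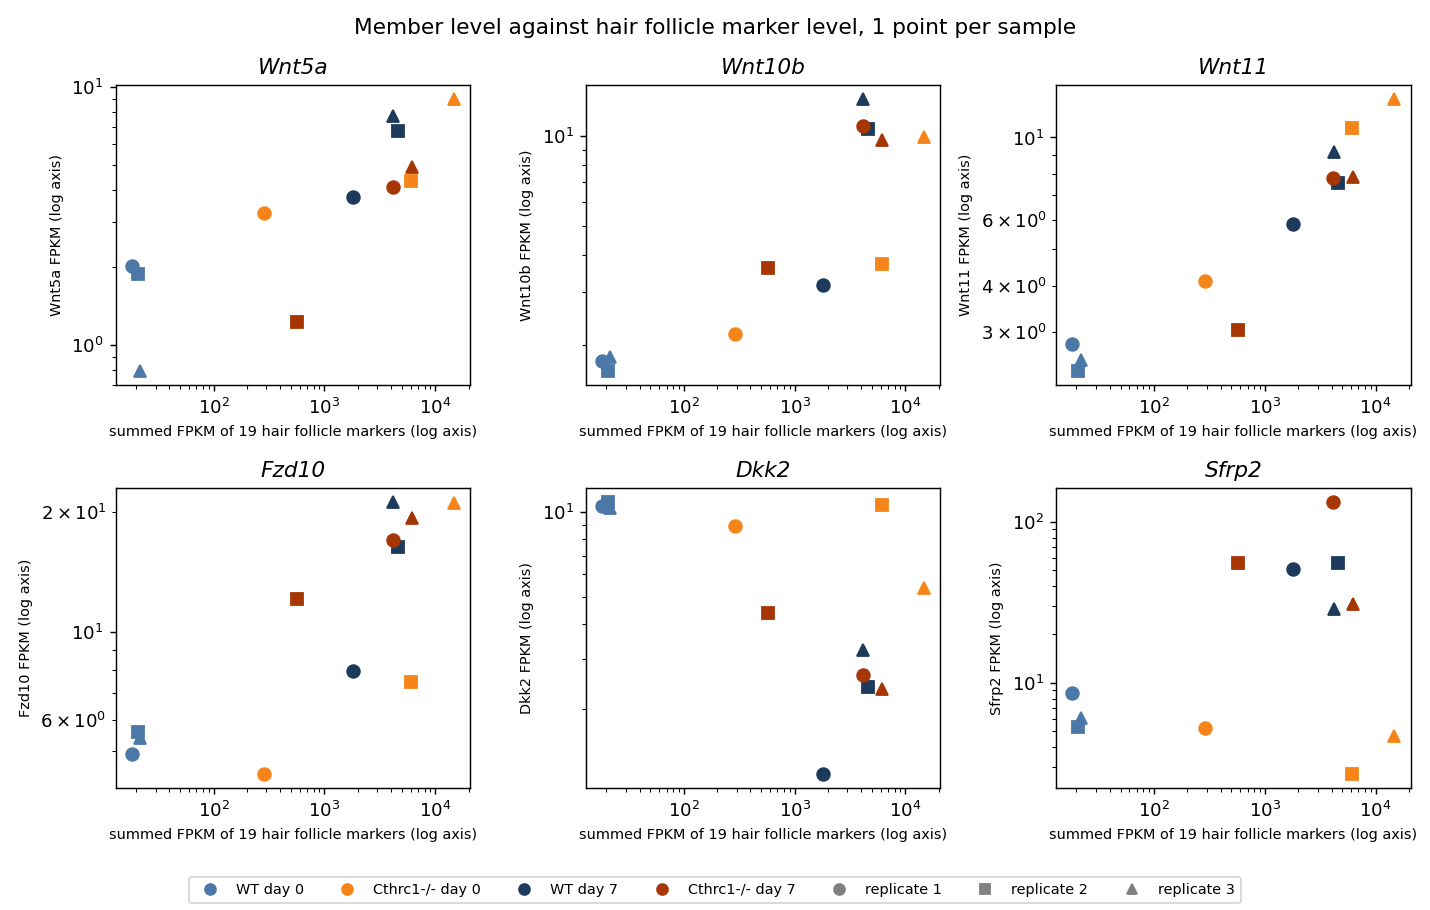
FPKM of 6 members against the summed FPKM of 19 hair follicle markers, with both axes logarithmic and 1 point per sample. Wnt11 lies at 2.35 to 2.79 FPKM at the left, in WT day 0, and at 12.7 FPKM in the rightmost sample, while Sfrp2 lies between 28.8 and 134 FPKM on day 7 and between 2.70 and 8.67 FPKM on day 0.

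The canonical and polarity arms were then compared as groups. The canonical arm was taken as 14 ligands with Lrp5, Lrp6 and Axin2, 17 genes, and the polarity arm as Wnt5a, Wnt5b, Wnt11, Fzd3, Fzd6, Ror1, Ror2 and the Vangl, Celsr and Prickle genes, 14 genes. The level of an arm in a sample was the mean of log2(FPKM + 1) over all its genes, tested or not. On day 0 the polarity arm was at 2.19 ± 0.031 (SD, n = 3) in WT and 2.51 ± 0.256 in Cthrc1-/-, and on day 7 at 2.41 ± 0.288 and 2.43 ± 0.167. The canonical arm was at 1.70 ± 0.056 and 1.57 ± 0.081 on day 0, and at 1.71 ± 0.285 and 1.73 ± 0.060 on day 7, WT first. The distance between the arms, polarity minus canonical, was 0.43, 0.58 and 0.45 in WT day 0 and 0.72, 1.02 and 1.08 in Cthrc1-/- day 0, without overlap. On day 7 it was 0.70, 0.64 and 0.74 in WT and 0.79, 0.58 and 0.74 in Cthrc1-/-, with overlap. No test was made of these scores, because the genes had been chosen with earlier results known, and the Cthrc1-/- day 0 distances again were smallest in replicate 1.

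**Figure D5:**
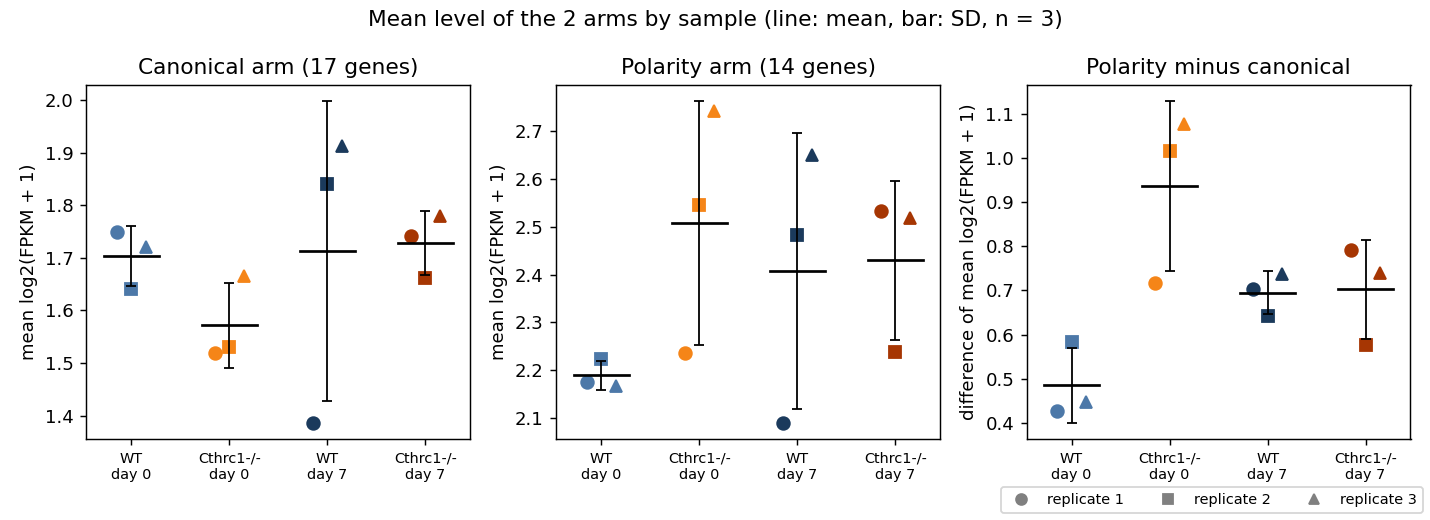
Mean log2(FPKM + 1) of the canonical arm, of the polarity arm and their difference, with 1 point per sample, the group mean as a line and the SD (n = 3) as a bar. Cthrc1-/- day 0 samples have differences of 0.72 to 1.08, above the 0.43 to 0.58 of WT day 0, and the day 7 groups overlap.

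By fitted changes, the canonical arm on day 0 had 2 members higher and 9 lower in Cthrc1-/- among the 11 tested, with a median log2 change of -0.37 against -0.047 over all genes, and 0 were called. Wnt3, an epidermal ligand, was at 14.9 to 15.8 FPKM in WT and 6.85 to 10.6 FPKM in Cthrc1-/- without overlap (edgeR adjusted p 0.212). The polarity arm had 8 higher and 5 lower of 13 tested, with a median of 0.042 and 1 called, which was Wnt11. The polarity median turned to -0.24 with the hair follicle score as covariate, and was -0.00054 without WT day 0 replicate 1 and -0.00082 without Cthrc1-/- day 0 replicate 3. On day 7 the medians between genotypes were 0.023 in the canonical and 0.00022 in the polarity arm, against -0.0055 over all genes. With 1 sample left out they ranged from -0.25 to 0.21 and from -0.18 to 0.082, both lowest without WT day 7 replicate 1, so no direction is read from them. Wnt2 is counted in the canonical arm. Leaving it out, an alternative chosen after seeing the data, gave medians of -0.33 on day 0, 0.046 on day 7, -0.34 between days in WT and 0.025 in Cthrc1-/-.

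Between days in WT the canonical median was -0.31 and the polarity median 0.19, against -0.0019 over all genes, and in Cthrc1-/- they were 0.11 and -0.28, against -0.013. In WT the canonical median was -0.076 without WT day 7 replicate 1. The WT polarity median turned to -0.039 without WT day 7 replicate 3 and to -0.10 with the hair follicle covariate. In Cthrc1-/- the canonical median turned to -0.032 without Cthrc1-/- day 7 replicate 2. Of the canonical arm 1 gene was called in WT, Wnt10b, and 0 in Cthrc1-/-. Of the polarity arm Ror2 was called higher and Fzd3 and Prickle2 lower in WT, and 0 in Cthrc1-/-. Axin2 was not called in any comparison. On day 0 it was at 7.92, 5.93 and 7.24 FPKM in WT and at 3.27, 3.88 and 9.44 FPKM in Cthrc1-/- samples. On day 7 the WT samples had 2.78, 5.26 and 6.07 FPKM and the Cthrc1-/- samples 7.49, 5.70 and 4.09 FPKM. The Cthrc1-/- day 0 samples of Axin2 lay on both sides of the WT range, and its fitted log2 changes were -0.49 between genotypes on day 0 (standard error 0.375, edgeR adjusted p 0.413) and -0.79 for WT over time (standard error 0.376, edgeR adjusted p 0.174).

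Other genes of the pathway were counted from 2 lists. Of 38 further canonical genes 35 were tested. On day 0, 3 were higher and 2 lower in Cthrc1-/-, against 3.51% and 2.26% of all genes. Lef1, a transcription factor of the arm, Porcn, the enzyme that adds the Wnt lipid, and the kinase Csnk1a1 were higher, and the target Myc and the coactivator Bcl9l were lower. Lef1 was at 0.519 to 0.696 FPKM in WT and at 1.25, 3.79 and 13.5 FPKM in Cthrc1-/- (log2 change 3.11, standard error 0.795, edgeR adjusted p 0.0496), lowest again in replicate 1. Myc was at 74.9 to 76.6 FPKM in WT and at 34.0 ± 12.6 FPKM (SD, n = 3) in Cthrc1-/- (log2 change -1.24, standard error 0.284, edgeR adjusted p 0.0402).

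From day 0 to day 7 in WT, 3 of these 35 genes rose and 3 fell, against 6.04% and 7.1% of all genes. Lef1, Kremen2 and Porcn rose by 2.75, 1.42 and 0.84 on the log2 scale, and Myc, Rspo1 and Dvl1 fell by 1.93, 0.98 and 0.48 (edgeR adjusted p between 0.00605 and 0.0454). In the 2 other pairwise comparisons and the interaction 0 of the 35 were called. Of 28 further polarity genes 23 were tested. Dact2 was called higher and Dact1 lower in Cthrc1-/- on day 0, both being intracellular modulators of the pathway, 2 of 23 against 5.78% of all genes. Between days in Cthrc1-/- the large cadherins Fat4 and Dchs1 rose, by 1.82 and 1.54 on the log2 scale (edgeR adjusted p 0.0440 and 0.0456), 2 of 23 against 1.46% of all genes, and in the other comparisons 0 of the 23 were called.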

How the data were processed

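The deposited table holds a whole-number count and an FPKM value per gene and sample for 12 samples, both made by the authors. The submitters' processing notes name cutadapt 1.9, HISAT2 2.0.4, UMI-tools, StringTie 1.3.4d, DESeq2, edgeR and GRCm38, with no role or order. The annotation and the counting settings, including use of strand, are not given in the sources used here. A deposited count of 0 carries an FPKM of 0.0001, taken as 0. Low deposited counts favour multiples of 4: genes with a count of 4 were 3.16 to 4.05 times more frequent than the mean of those with 3 or 5, so a count is not 1 fragment.

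Symbols and coordinates came from GENCODE M21 (GRCm38), which named 55141 of 55401 genes. The 14313 genes with a mean of at least 1 FPKM were fitted in R 4.3.3 with edgeR 4.0.16 (TMM, quasi-likelihood test, two-sided, 1 mean per group, no covariate), adjusted by Benjamini-Hochberg over all of them. Standard errors are the absolute log2 change over the square root of F. Adjusted p-values of the alternatives come from edgeR, limma 3.58.1 (trend, log2 of FPKM plus 1 or 0.1) or DESeq2 1.42.0. The procedure was also run on simulated counts with the same spread in every group and planted changes larger than those of most called members. That run cannot show how reliable the calls are here. Members and lists were chosen with earlier results of these data known. Sample values were given for called members, the highest member of each role and the 2 smallest p-values where none was called; up to 5 called pathway genes were named per comparison. Other members were added after their values were seen. Replicates are biological per the labels, which do not say that they are separate animals, so p-values measure the spread between these samples. In edgeR that spread was estimated for each gene over the 4 groups together, and not from the groups compared alone. Groups could differ in spread, as for Wnt11, with an SD of 0.222 FPKM in WT day 0 and 4.48 FPKM in Cthrc1-/- day 0. Marker lists also covered suprabasal and wound keratinocytes, macrophages and skeletal muscle; Krt85 was not analysed here. Per-sample columns left unused numbered 0. Counting limits cover counting error only.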

Additional observations from a re-analysis of the deposited data

How the results depend on the processing

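With 3 samples per group, calls near the threshold depended on single libraries and on the method, and the cause was not tested. Members called were, with DESeq2, 7 between genotypes on day 0, 1 on day 7, 15 between days in WT, 7 in Cthrc1-/- and 2 for the interaction, against 3, 0, 9, 1 and 0 in edgeR. Over all genes DESeq2 called 2787, 62, 3551, 1409 and 681 in that order, against 827, 3, 1880, 209 and 2 in edgeR. Calls thus rose and fell over all genes, and the member counts are to be read beside the counts over all genes. Both limma fits, on log2 of FPKM plus 1 or 0.1, called 1 on day 0 and 2 in Cthrc1-/-. Over all genes these fits called 601 and 694 on day 0, and 775 and 773 in Cthrc1-/-. A mean FPKM of at least 0.1 gave 1 on day 0 (423 over all genes). No filter on level gave 1 on day 0 (275 over all genes) and 5 in WT (1293 over all genes). Counts divided by 4 gave 2 on day 0 (767 over all genes), with Fzd5 not called. They gave 9 in WT (1877 over all genes) and 1 in Cthrc1-/- (221 over all genes). Total-count scaling gave 2 in Cthrc1-/-. Over all genes, total-count scaling moved the split of higher and lower calls from 503 and 324 to 523 and 209 on day 0, from 864 and 1016 to 1669 and 543 in WT, and from 123 and 86 to 649 and 98 in Cthrc1-/-. Fitting only the groups compared gave 0 on day 0 (19 over all genes) and 0 in Cthrc1-/- (89 over all genes). The hair follicle score as covariate gave 0 on day 0 and 0 in WT, where it takes up part of the group difference by construction. It turned Wnt11 and Fzd5 on day 0 to -0.074 and -0.098. In Cthrc1-/-, where the hair follicle sums overlapped between days, the covariate gave 5. Over all genes it gave 9, 60 and 466 in that order. Leaving out 1 sample at a time gave 0 to 6 on day 0, 0 on day 7, 2 to 15 in WT, 0 to 4 in Cthrc1-/- and 0 to 2 for the interaction. Over all genes these fits called 18 to 2146 on day 0, 527 to 3005 in WT and 5 to 911 in Cthrc1-/-. For the interaction, the fit without Cthrc1-/- day 0 replicate 1 called 2 members and 242 genes in all, against 0 and 2 with all samples.

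The median log2 change of the canonical arm was -0.17 on day 0 with limma and a pseudocount of 1. In WT it was -0.11 and -0.13 in the 2 limma fits, -0.096 with total-count scaling and -0.52 with the hair follicle covariate. In Cthrc1-/- it was 0.28 with total-count scaling and 0.36 with no filter. For the interaction it was 0.46 with the lower filter, 0.47 with no filter and 0.43 with the covariate. The polarity median with the covariate was -0.24 on day 0, -0.10 in WT and 0.38 for the interaction. With 1 sample left out, the canonical median ranged from -0.47 to -0.30 on day 0, -0.25 to 0.21 on day 7, -0.40 to -0.076 in WT, -0.032 to 0.29 in Cthrc1-/- and 0.12 to 0.58 for the interaction. The polarity median ranged from -0.00082 to 0.15, -0.18 to 0.082, -0.039 to 0.34, -0.42 to -0.20 and -0.18 to 0.10 in that order.

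With the replicate number as a block, members called were 2 on day 0, 6 in WT and 2 in Cthrc1-/-, and the canonical interaction median was 0.43. Over all genes the block fits called 883, 1467 and 291 in that order. Deviations of same-numbered samples correlated between -0.23 and 0.43, with 5 of 18 pairs over 0.1. Those of different-numbered samples correlated between -0.45 and 0.52, with 6 of 36 pairs over 0.1. The 2 ranges overlap, so these values cannot decide whether the numbers pair the samples.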
